A study of Mus musculus with 38 samples.

Results

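*Pappa* and 9 further genes of the insulin-like growth factor (IGF) system were followed across 38 libraries of mouse dentate granule cells. The 10 genes, taken by symbol from the 23420 genes counted in every library, are the ligands *Igf1* and *Igf2*, the receptors *Igf1r* and *Igf2r*, the binding proteins *Igfbp2*, *Igfbp4* and *Igfbp5*, the protease *Pappa*, and its inhibitors *Stc1* and *Stc2*. They were chosen by the fitted difference of *Pappa* between dVenus+ and dVenus- cells of fear conditioned mice, so the values of that contrast are given as a description, without a p-value.

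All mice were male *Arc*::dVenus transgenics on a C57BL/6J background, aged 8 to 12 postnatal weeks, with dVenus, a fluorescent protein of short life, under the *Arc* promoter. Of the 19 mice, 12 were Fear Conditioned (FC) with 3 tones that each ended in a foot shock, 4 went through the same protocol with No Shock (NS), and 3 stayed in the Home Cage (HC). FC and NS cells were aspirated 24 h after training. One library was made from 10 pooled fluorescent cells (dVenus+) and one from 10 pooled non-fluorescent cells (dVenus-) of each mouse, so a value is that of a pool, and dVenus+ reports activity of the *Arc* promoter and no other property of a cell. Fewer cells that express a gene and less RNA per cell cannot be told apart in such pools.

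IGF-I and IGF-II act mainly through the IGF1R receptor tyrosine kinase, whereas IGF2R binds IGF-II and carries it to lysosomes. In tissue most IGF is held by binding proteins (IGFBPs). PAPP-A, the secreted metalloprotease that *Pappa* encodes, cleaves IGFBP-4 and IGFBP-5 and so releases IGF, and the stanniocalcins STC1 and STC2 inhibit it. In the brain IGFs are known for their effects on neuronal growth, survival and plasticity.

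To 5 significant digits, each library held between 1352300 and 18395000 reads counted on genes (median 8013000). Levels are given as CPM (a gene's counts in a library brought to 1000000 counts), scaled by TMM, and 3 counts, taken as the limit that a count of 0 allows, correspond to between 0.163 and 2.22 unscaled CPM. The TMM factors ran from 0.306 to 1.83, so unless stated a direction within a mouse is that of scaled levels. Reads carried no molecular identifiers, so limits and intervals of counts cover counting error only. *Arc* ran from 147 to 1539 CPM in dVenus+ and from 0 to 172 CPM in dVenus- libraries, and within FC, NS and HC every dVenus+ library lay above every dVenus- library. *Prox1*, the defining transcription factor of granule cells, was counted in all 38 libraries. The FC dVenus+ libraries of mice 5 and 3 held only 1 and 6 counts of it. Its medians in FC, NS and HC were 66.0, 21.1 and 19.1 CPM in dVenus+ and 106, 146 and 86.4 CPM in dVenus- libraries. The summed level of 9 granule cell markers was lower in the dVenus+ cells of 12 of 12 FC (187 to 1031 against 477 to 1884 CPM), 4 of 4 NS (254 to 392 against 781 to 1186 CPM) and 3 of 3 HC mice (227 to 627 against 816 to 1904 CPM), and the ranges overlapped in FC only. Not every marker followed the sum. In FC the medians of *Trpc6* and *Pdzd2* were 106 and 91.4 CPM in dVenus+ against 51.0 and 28.6 CPM in dVenus- libraries, while those of the other markers were lower in dVenus+. The sum of 9 microglia markers was the larger in dVenus+ cells for 12 of 12 FC, 4 of 4 NS and 2 of 3 HC mice, although in FC *P2ry12* had the lower median there. Without TMM scaling the microglia sum was the smaller in dVenus+ cells of FC mice 5 and 6 and of NS mouse 21. The granule cell sum was then the larger in dVenus+ cells of FC mouse 12. The FC mice were sequenced under 3 sample prefixes and the NS and HC mice under another. Differences between FC mice and the others, in level or in the cell type difference, therefore cannot be separated from what goes with the prefix. The paper describes the FC group as 3 independent experiments of 6, 4 and 2 mice, which are the sizes of the 3 FC prefixes. The dVenus+ and dVenus- libraries of 1 mouse always share a prefix.

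Per length of exon, *Igfbp5* had the highest level of the 10 genes. The median over the 38 libraries was 11.9 CPM per kb for *Igfbp5*, 0.895 for *Igf2r* and 0.878 for *Igf1r*, and these receptors did not differ beyond their spread. For *Pappa* it was 0.0863, for *Igf2* 0.0695, for *Stc1* 0.0624, for *Igfbp4* 0.0206 and for *Igf1* 0.00858 CPM per kb, while the medians of *Igfbp2* and *Stc2* were 0. At least 10 counts were reached by *Igfbp5* in 37 libraries, *Igf1r* in 32, *Igf2r* in 30, *Pappa* in 18, *Stc1* in 16, *Igf2* and *Igfbp2* in 10, *Igfbp4* in 9, *Igf1* in 7 and *Stc2* in 4. Among the low genes the mean lay far above the median, at 7.65 CPM per kb for *Igfbp2* and 4.05 for *Igfbp4*, and single libraries held most of their counts. In FC dVenus- libraries the mean level per kb of *Igfbp5* was 24.2 and that of *Pappa* 0.022, and in FC dVenus+ libraries they were 4.00 and 2.97.

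**Figure D1:**
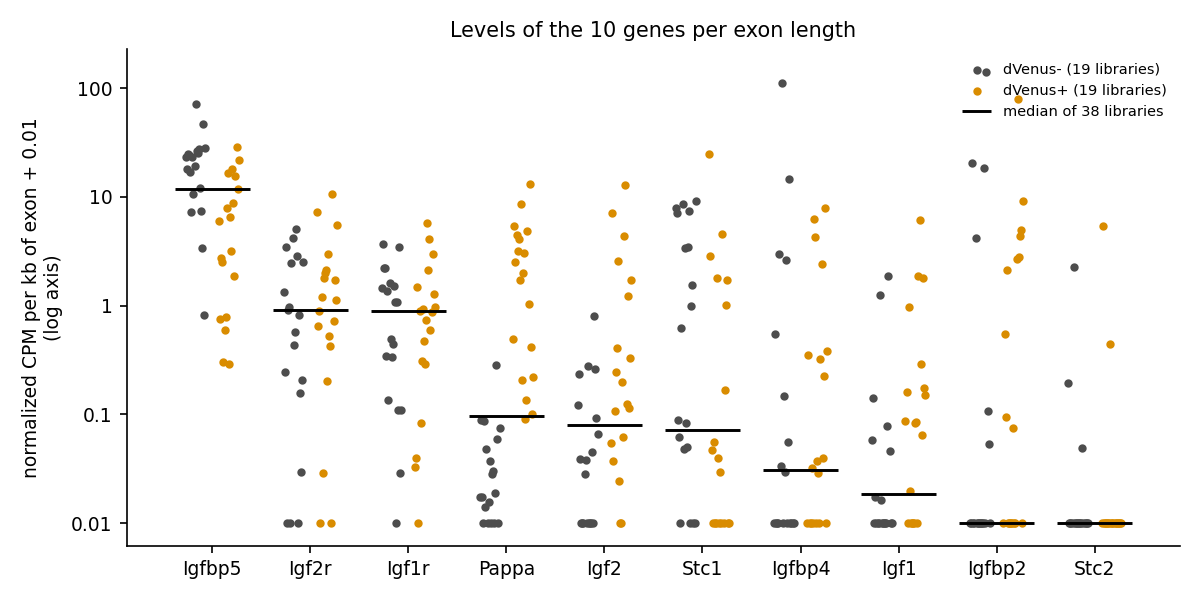
Level of each gene in every library as normalized CPM per kb of exon plus 0.01, on a log axis, with dVenus- libraries in grey, dVenus+ libraries in orange (19 each) and the median of the 38 libraries as a bar. *Igfbp5* lies highest with a median of 11.9, and *Igfbp2* and *Stc2* lowest with medians of 0.

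*Pappa* (chr4:65124174-65357509, plus strand, GRCm38) was near 0 in dVenus- cells, and in 19 of 19 mice its level was higher in dVenus+ cells. For mice 14 (FC), 21 (NS) and 15 (HC) this rested on 3 against 3, 10 against 9 and 5 against 3 counts. In FC mice its dVenus+ level ran from 0.894 to 94.96 CPM with a median of 30.6, and its dVenus- level from 0 to 0.867 CPM with a median of 0.0811. In counts, the dVenus+ libraries held 3 to 1135 and the dVenus- libraries 0 to 10. The lowest dVenus+ library was that of mouse 14, with 3 counts in each of its libraries, and the next lowest held 35 counts. With TMM scaling the ranges just failed to meet, whereas in unscaled CPM they overlapped through mouse 14 (0.374 against up to 1.12). Of all genes tested in FC, 0.0515% had ranges that did not overlap.

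The fitted difference of *Pappa* in FC was 7.31 ± 1.05 on the log2 scale (SE, n = 12 mice), and the difference within a mouse, on log2(CPM + 0.5), had a median of 5.12 and ran from 0.99 to 7.58. *Pappa* reached the filter of at least 10 counts in 12 libraries through 11 dVenus+ libraries and 1 dVenus- library, so it was tested only because it was high in dVenus+ cells. Within the sequencing prefixes the median difference was 4.39 for the prefix of 2 mice, 6.00 for that of 4 and 4.59 for that of 6, with every mouse in the same direction.

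In NS mice, which the choice of genes did not use, *Pappa* was higher in dVenus+ cells of all 4 animals but the levels were spread widely. The dVenus+ libraries of mice 18, 19, 20 and 21 held 144, 4.47, 1.01 and 2.34 CPM, against 3.05, 0.542, 0 and 0.72 CPM in their dVenus- libraries. For mouse 21 these were 10 against 9 counts. Mouse 18 had by far the highest value in both cell types, and with the others at or under 15 counts the groups overlapped, whereas those of 5.94% of all genes tested in NS did not. The fitted difference was 4.36 ± 2.54 (SE, n = 4 mice) and did not pass (edgeR, adjusted p = 0.617).

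In HC mice the dVenus+ libraries of mice 15, 16 and 17 held 1.37, 53.5 and 11.3 CPM of *Pappa*, and the dVenus- libraries 0.222, 0 and 0.0973 CPM. All 3 dVenus+ values lay above all 3 dVenus- values, and 14.4% of the genes tested in HC had ranges that did not overlap. Only 2 of the 6 libraries had 10 counts, so *Pappa* was outside the filter. Without the filter its difference was 5.99 ± 2.90 (SE, n = 3 mice), which did not pass (edgeR, adjusted p = 0.533). Summed over the mice, 205 against 4 counts gave a ratio of 61.4 in CPM, with a 95% counting interval from 23.6 to 227.

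The microglia list was higher in the same direction as *Pappa* in most mice. The highest *Pappa* level of all, in the NS dVenus+ library of mouse 18, went with 79.4 CPM of the microglia list, the lowest of the NS dVenus+ libraries, and the FC dVenus+ library with the least of it (mouse 12, 32.7 CPM) held 21.9 CPM of *Pappa*. The FC dVenus+ library with the most (mouse 9, 1714 CPM) held 18.7 CPM of *Pappa*. The part of microglia in the level of *Pappa* was not tested.

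**Figure D2:**
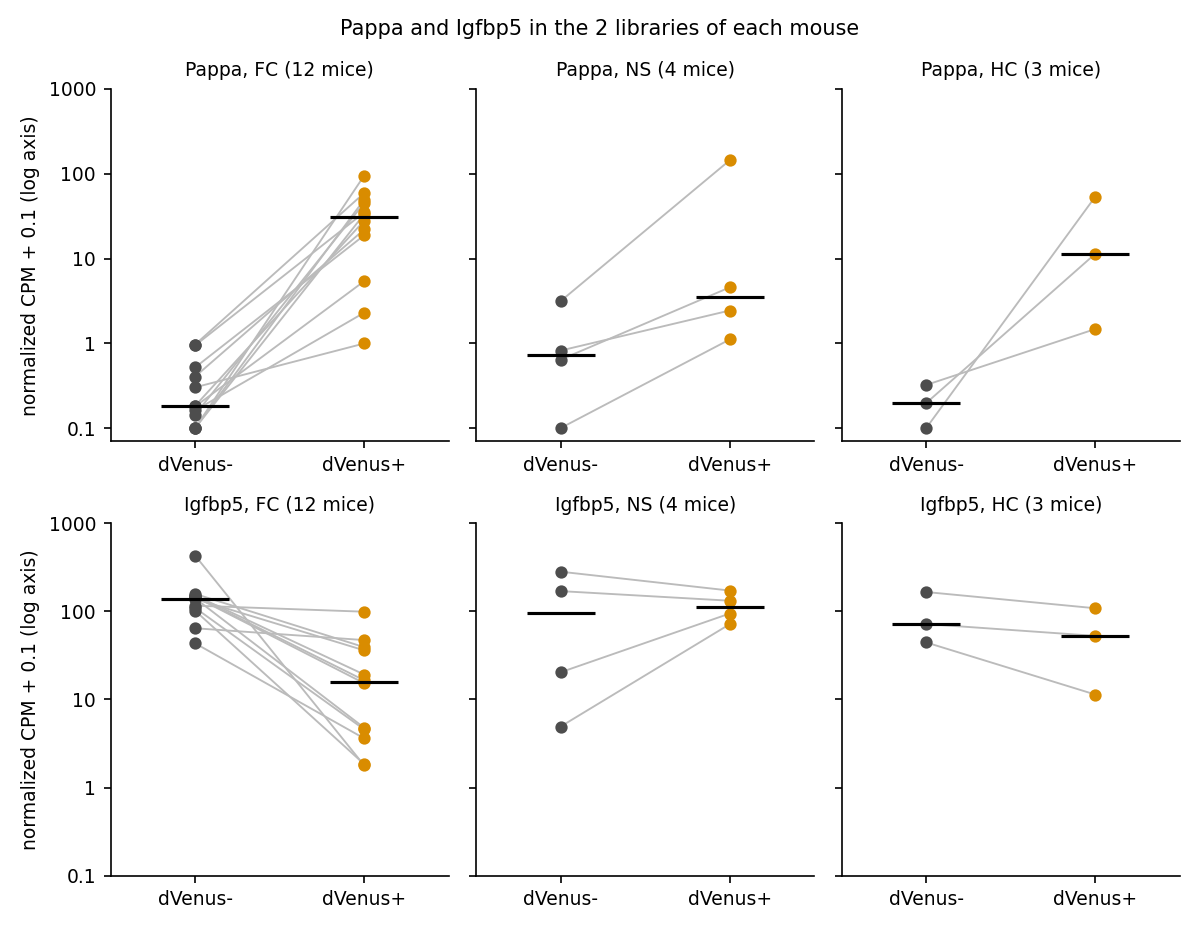
Normalized CPM plus 0.1, on a log axis, of *Pappa* (top) and *Igfbp5* (bottom) in the dVenus- (grey) and dVenus+ (orange) library of each mouse, with a line for each mouse and a bar at the median, in FC, NS and HC mice. *Pappa* rises towards dVenus+ along every line, and *Igfbp5* falls along all 12 FC and all 3 HC lines but only along 2 of the 4 NS lines.

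*Igfbp5* (chr1:72857932-72874884, minus strand) was the only other gene of the 10 called in FC, and it was lower in dVenus+ cells. It encodes the binding protein IGFBP-5, a substrate of PAPP-A. FC dVenus- libraries held 43.2 to 429 CPM with a median of 139, and dVenus+ libraries 1.68 to 99.0 CPM with a median of 15.8. In 12 of 12 mice the dVenus+ value was the lower, although the ranges overlapped. The sum of the granule cell markers was lower in the same 12 libraries, with medians of 512 against 992 CPM, though *Trpc6* and *Pdzd2* had higher medians there. The part of these markers in the level of *Igfbp5* was not tested. The fitted log2 difference was -3.12 ± 0.59 (SE, n = 12 mice), and the median difference within a mouse was -3.18 with a range from -7.62 to -0.23. By prefix the median was -3.20 for the prefix of 2 mice, -3.34 for that of 4 and -2.48 for that of 6.

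*Igfbp5* went both ways in NS mice. In mice 18, 19, 20 and 21 the dVenus+ level was 94.3, 172, 71.4 and 132 CPM and the dVenus- level 20.3, 282, 4.83 and 170 CPM, so mice 18 and 20 were higher and mice 19 and 21 lower in dVenus+ cells. The dVenus+ values lay inside the range of the dVenus- values. The fitted difference was 1.09 ± 1.12 (SE, n = 4 mice; edgeR, adjusted p = 0.795).

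In HC mice 15, 16 and 17 *Igfbp5* was at 108, 52.6 and 11.3 CPM in dVenus+ and at 166, 71.7 and 44.3 CPM in dVenus- libraries. It was lower in dVenus+ cells of all 3 mice, but the groups overlapped. The difference of -1.14 ± 1.304 (SE, n = 3 mice) did not pass (edgeR, adjusted p = 0.815).

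In FC, where 4 of the 10 genes passed the filter of at least 10 counts in 12 libraries, a gene was called at an adjusted p under 0.05 and an absolute log2 difference over 1. By this rule 2 of the 4 were called, *Pappa* higher and *Igfbp5* lower, beside 4.35% of all 9709 genes tested (1.5% higher and 2.84% lower). Since that contrast chose the genes, nothing is read from this share. In NS mice 0 of the 6 genes tested were called, beside 0.0489% of 8187 genes (0.0366% higher and 0.0122% lower, and 8.67% at an unadjusted p under 0.05 in edgeR), and in HC mice 0 of 6 beside 0% of 7588 genes, where 532 genes (7.01%) had an unadjusted p under 0.05 in edgeR and 627 were called by DESeq2.

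**Figure D3:**
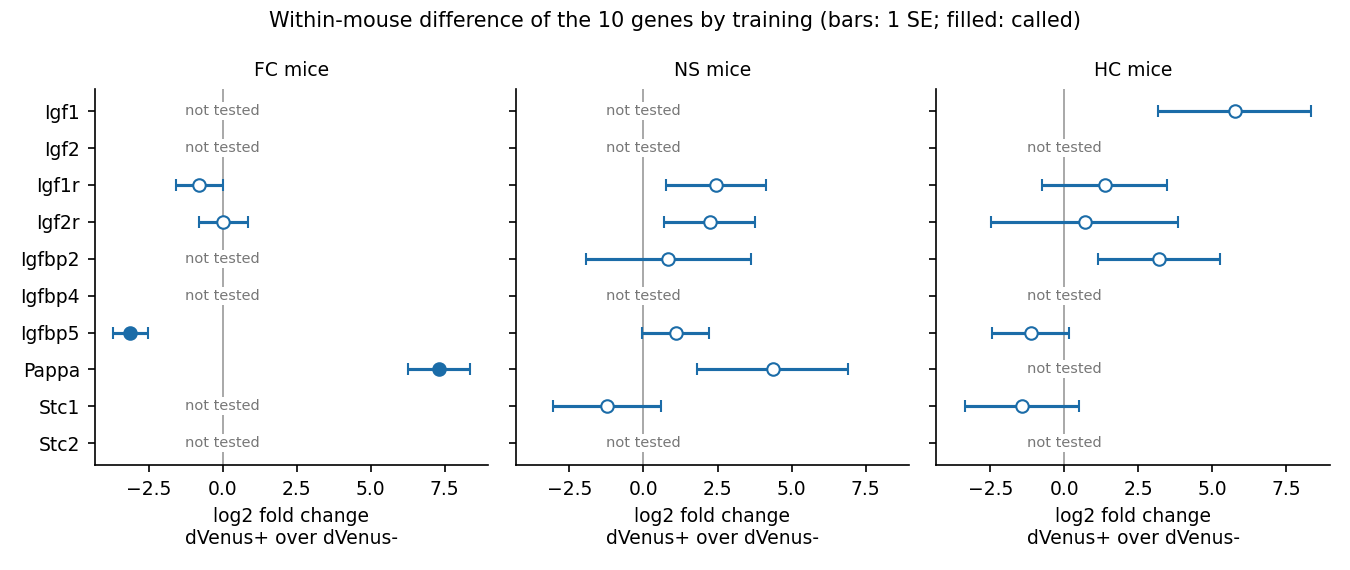
Fitted log2 difference between dVenus+ and dVenus- libraries for each gene that passed the count filter, with bars of 1 SE, in FC (12), NS (4) and HC (3) mice; filled points were called. The called genes are *Pappa* at 7.31 and *Igfbp5* at -3.12 in FC, and the bars in NS and HC are wider.

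The receptors were counted in most libraries without a called difference. *Igf1r* (chr7:67952827-68233668, plus strand), the tyrosine kinase receptor, held 0 to 97.2 CPM in FC dVenus+ (median 6.43) and 2.10 to 61.5 CPM in FC dVenus- libraries (median 23.6). It was lower in dVenus+ cells of 8 and higher in 4 of the 12 mice, and the fitted difference was -0.79 ± 0.79 (SE). Both mice of the prefix of 2 and 3 of the 4 mice of the next were lower, against 3 of the 6 of the largest, and with these 6 mice alone the fitted difference was 0.46.

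In NS mice 18, 19, 20 and 21 *Igf1r* was at 14.6, 50.01, 21.2 and 16.1 CPM in dVenus+ libraries and at 1.68, 57.4, 0.317 and 1.68 CPM in dVenus- libraries. Mouse 19 alone had a high dVenus- value, and the other 3 mice were higher in dVenus+ cells. The difference was 2.44 ± 1.68 (SE, n = 4 mice; edgeR, adjusted p = 0.682). For HC mice 15, 16 and 17 the dVenus+ libraries held 35.4, 69.3 and 9.95 CPM and the dVenus- libraries 18.0, 0 and 17.8 CPM. The groups overlapped, and the difference was 1.36 ± 2.12 (SE, n = 3 mice; edgeR, adjusted p = 0.876). In unscaled CPM mouse 15 was lower in dVenus+ cells (21.6 against 28.4).

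*Igf2r* (chr17:12682406-12769664, minus strand), the receptor that clears IGF-II, showed no FC difference, with 0 to 68.2 CPM in dVenus+ (median 9.63) and 0 to 46.7 CPM in dVenus- libraries (median 8.71). The fitted difference was 0.02 ± 0.83 (SE), with 5 mice higher, 6 lower and 1 at 0 in both. In NS mice 18, 19, 20 and 21 the dVenus+ libraries held 6.60, 16.1, 10.5 and 50.9 CPM and the dVenus- libraries 1.37, 0.18, 1.82 and 23.4 CPM. With TMM scaling all 4 mice were higher in dVenus+ cells, by 2.23 ± 1.55 in the fit (SE; edgeR, adjusted p = 0.683). In unscaled CPM mouse 21 was lower in dVenus+ cells (25.7 against 34.7). In HC mice 15, 16 and 17 the values were 3.84, 0 and 98.8 CPM in dVenus+ and 26.3, 0 and 7.49 CPM in dVenus- libraries, with 1 mouse each way and 1 at 0 in both (0.69 ± 3.15, SE; edgeR, adjusted p = 0.967). *Airn*, a noncoding gene that runs antisense to *Igf2r*, had up to 558 counts and at least 10 in 13 libraries. The strand setting of the counting is not given in the sources used here, so reads of the overlap cannot be assigned with certainty. The same limit holds for the ligand levels: *Igf2as*, antisense to *Igf2*, had at most 3 counts in any library, and *Igf1os*, antisense to *Igf1*, was not analysed here.

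The ligands were seldom counted in FC mice, and their group medians were highest in HC dVenus+ libraries. In unscaled CPM the highest single libraries were FC ones. For *Igf2* this was the dVenus+ library of mouse 3 (60.6, against up to 22.3 in HC). For *Igf1* it was the dVenus- library of mouse 10 (19.0, against up to 18.3 in HC). *Igf1* (chr10:87858265-87937042, plus strand) had at least 10 counts in 1 of 12 FC dVenus+ libraries (mouse 5, 9.56 CPM) and in 1 of 12 FC dVenus- libraries (mouse 10, 12.3 CPM), and the group medians were 0.0485 and 0 CPM. In NS mice 18, 19, 20 and 21 it was at 0.539, 17.9, 1.61 and 1.401 CPM in dVenus+ and at 18.4, 0.361, 0 and 0 CPM in dVenus- libraries. One library of each cell type, from different mice, held nearly all of it.

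In HC mice 15, 16 and 17 *Igf1* reached 18.4, 60.02 and 2.78 CPM in dVenus+ cells (67, 129 and 21 counts), and 0, 0 and 0.681 CPM in dVenus- cells (0, 0 and 7 counts). The ranges did not overlap, as for 14.4% of the 7588 genes tested in HC. *Igf1* passed the filter through the dVenus+ libraries alone, so its fitted difference of 5.74 ± 2.57 (SE, n = 3 mice) is a description. It ran from 4.52 without mouse 16 to 10.30 without mouse 17.

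*Igf2* (chr7:142650766-142666816, minus strand) was higher in the dVenus+ library of 7 FC mice, lower in 4 and at 0 in both of 1. In 5 of the 12 mice, the one at 0 included, both libraries held at most 3 counts. FC dVenus+ libraries ran from 0 to 40.8 CPM (median 0.43) and FC dVenus- libraries from 0 to 1.52 CPM (median 0.0524), and at least 10 counts were found in 5 of the former and 0 of the latter, too few for the filter. With genes of at least 10 counts in 3 libraries tested, the FC difference was 3.45 ± 1.48 (SE) and was not called. In NS mice 18, 19, 20 and 21 *Igf2* was at 7.01, 0.595, 1.82 and 9.81 CPM in dVenus+ and at 4.57, 1.44, 0.475 and 0.32 CPM in dVenus- libraries, with 3 of 4 mice higher in dVenus+ cells and overlapping groups.

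*Igf2* in HC mice 15, 16 and 17 was at 25.0, 73.0 and 0.663 CPM in dVenus+ cells, from 91, 157 and 5 counts, against 0, 0.201 and 0 CPM in dVenus- cells, from 1 count in all. The groups did not overlap, as those of 14.4% of the genes tested in HC, and 253 against 1 counts gave a ratio of 303 with a 95% counting interval from 53.9 to 12018. *Igf2* was outside the filter in HC. Without it, the difference did not pass (edgeR, adjusted p = 0.533).

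Markers of other cell types differed between the same HC libraries. The 9 microglia markers summed to 982, 1073 and 276 CPM in the dVenus+ libraries of mice 15, 16 and 17 and to 1.93, 501 and 301 CPM in their dVenus- libraries, with 6 to 9 of the 9 detected in the former and 2 to 7 in the latter. *Aif1* was at 0 in all 3 dVenus- and in 1 dVenus+ library, and *Tmem119* was at 0 in 2 libraries of each. *P2ry12* was at 19.8, 0 and 85.1 CPM in dVenus+ and at 0, 303 and 62.9 CPM in dVenus- libraries. In mouse 16 both *P2ry12* and *Tmem119* were thus lower in dVenus+ cells, *Tmem119* at 0 against 140 CPM. The 6 astrocyte markers ran from 1247 to 1404 CPM in HC dVenus+ and from 227 to 484 CPM in HC dVenus- libraries. In mouse 16 the dVenus+ library held the most *Igf1*, *Igf2* and *Igfbp2* of the HC libraries. Its 6 fibroblast and mural cell markers summed to 171 CPM, the highest scaled sum of the 38 libraries. This library had the smallest TMM factor (0.306), and in unscaled CPM its sum was not the highest. The part of these cells in the ligand levels was not tested.

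*Igfbp2* and *Igfbp4*, 2 further binding protein genes, were at or near 0 in most libraries and high in a few. *Igfbp2* (chr1:72824503-72852474, plus strand, the neighbour of *Igfbp5* on the chromosome) was at 0 in 8 of 12 FC dVenus+ and 10 of 12 FC dVenus- libraries. The exceptions over 5 CPM were the dVenus- libraries of mouse 4 (37.8 CPM) and mouse 7 (7.74 CPM). In NS mice 18, 19, 20 and 21 it was at 8.09, 9.23, 0 and 17.0 CPM in dVenus+ and at 261, 0.18, 0.0792 and 0 CPM in dVenus- libraries, and the fitted difference was 0.84 ± 2.79 (SE; edgeR, adjusted p = 0.948). In HC mice 15, 16 and 17 *Igfbp2* was at 4.94, 146 and 5.17 CPM in dVenus+ and at 0, 34.2 and 0 CPM in dVenus- libraries. All 3 mice were higher in dVenus+ cells, by 3.19 ± 2.05 in the fit (SE), and by 8.36 without mouse 16, whose dVenus- library was the only one of the 3 with counts. The 3 dVenus+ libraries alone met the filter, so this difference too is a description.

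*Igfbp4* (chr11:99041244-99054392, plus strand) encodes IGFBP-4, the other main substrate of PAPP-A. In FC its highest library was the dVenus- library of mouse 10 with 9210 counts (491 CPM), while the medians were 0.0413 CPM in dVenus+ and 0.0948 CPM in dVenus- libraries. All 4 NS dVenus- libraries held 0 counts, which allows up to 0.342 to 0.356 unscaled CPM, whereas NS dVenus+ libraries of mice 18, 19, 20 and 21 held 0.943, 34.8, 0 and 1.63 CPM. *Igfbp4* in HC mice 15, 16 and 17 was at 1.37, 10.7 and 0.133 CPM in dVenus+ and at 0, 0.201 and 63.9 CPM in dVenus- libraries, with no common direction. The gene was outside the filter in FC, NS and HC.

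The dVenus- library of FC mouse 10, which held the most *Igfbp4* of all and the most *Igf1* of the FC libraries, also had the highest sum of the 7 interneuron markers (2623 CPM), and the dVenus- library of NS mouse 18, with the most *Igfbp2* of all, had the second highest (1266 CPM). The sums of the other 36 libraries lay at or under 490 CPM. The former held 1.12 CPM of the microglia list and 623 CPM of the 6 oligodendrocyte markers, and the latter 18.1 and 2782 CPM. The latter also held 74.0 CPM of the 3 choroid plexus markers, the second highest of the 38 libraries in scaled CPM. The part of these cell types in the high values was not tested.

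Of the stanniocalcins, which inhibit PAPP-A, *Stc1* was tested in NS and HC without a call. *Stc2* was outside the filter in FC, NS and HC. *Stc1* (chr14:69029238-69041804, plus strand) ran from 0 to 104 CPM in FC dVenus+ (median 0.104) and from 0 to 35.7 CPM in FC dVenus- libraries (median 1.44), with at least 10 counts in 3 and 6 of 12 libraries, and was lower in dVenus+ cells of 9 of 12 mice. For mice 4, 5, 12 and 13 this rested on 1 against 4, 0 against 3, 0 against 1 and 1 against 2 counts. The groups overlapped and *Stc1* was outside the FC filter. In NS mice 18, 19, 20 and 21 it was at 4.18, 7.14, 0 and 0 CPM in dVenus+ and at 6.40, 0, 0 and 38.6 CPM in dVenus- libraries (-1.24 ± 1.82, SE; edgeR, adjusted p = 0.868). Mice 15, 16 and 17 (HC) held 19.2, 0 and 0.663 CPM in dVenus+ and 31.2, 0 and 4.09 CPM in dVenus- libraries (-1.44 ± 1.92, SE; edgeR, adjusted p = 0.847).

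*Stc2* (chr11:31357307-31370074, minus strand) was at 0 in 33 of the 38 libraries. It reached 10 counts only in FC mice, in the dVenus+ libraries of mice 3 (56 counts) and 11 (36 counts) and in the dVenus- libraries of mice 1 (12 counts) and 7 (267 counts). In NS libraries it was at 0 throughout, and in HC libraries 1 count was found.

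**Figure D4:**
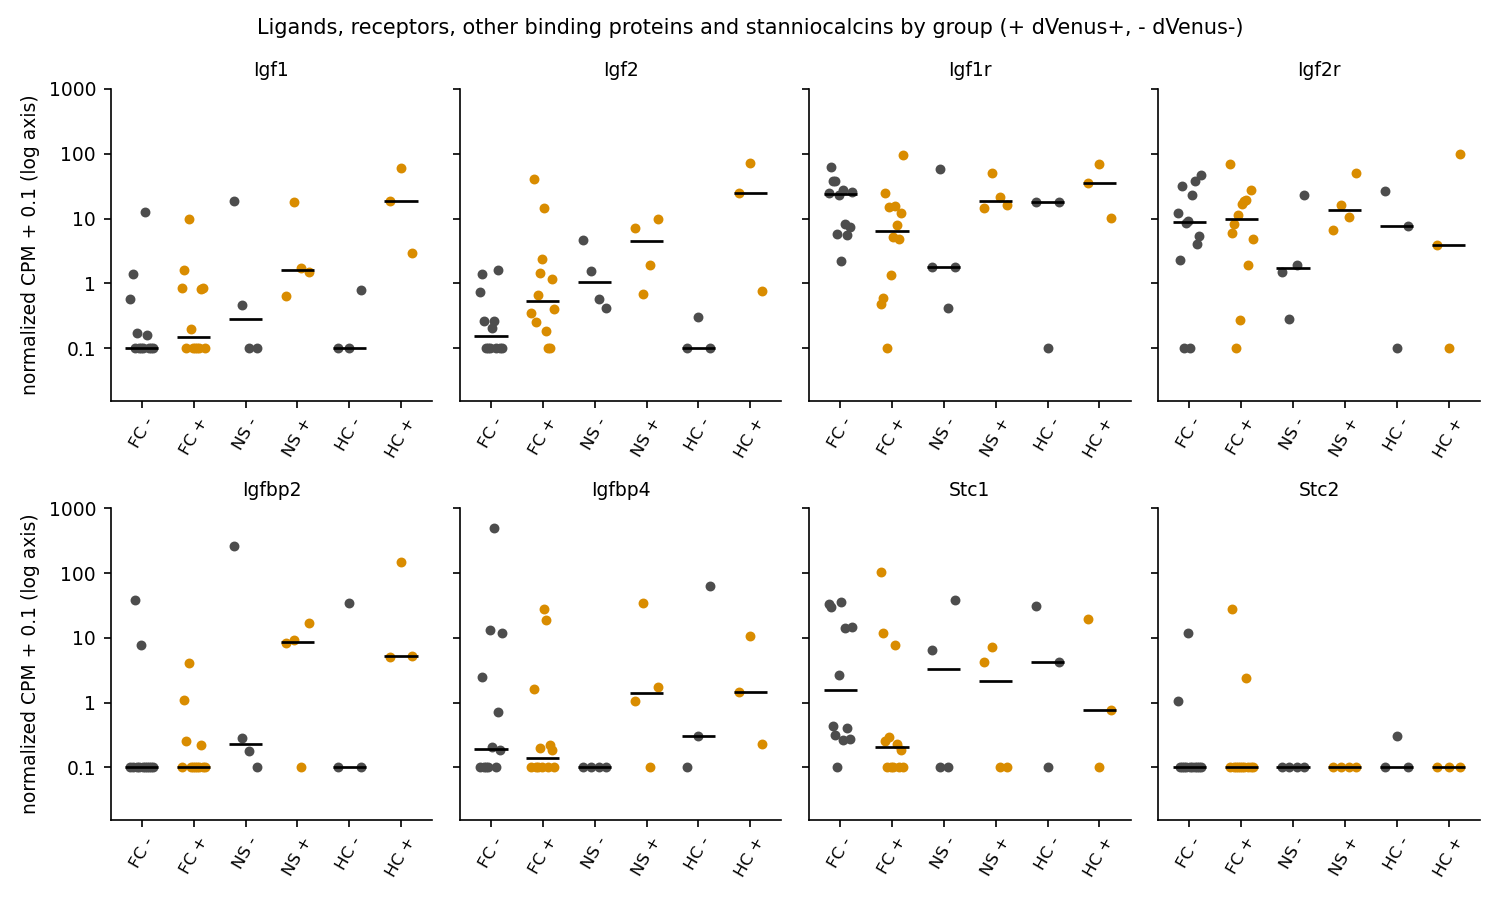
Normalized CPM plus 0.1, on a log axis, of the other 8 genes in each of the 6 groups, with 1 point per library (orange dVenus+, grey dVenus-) and a bar at the median. The receptors *Igf1r* and *Igf2r* are spread over the whole range in most groups. *Igf1* and *Igf2* have their highest medians in HC dVenus+ libraries, at 18.4 and 25.0 CPM.

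Whether the difference between cell types differed between FC, NS and HC was tested as an interaction over 14075 genes in 1 fit of all 38 libraries. For FC against NS, FC against HC and NS against HC 0 of the 10 genes passed, beside 0% of all genes. At an unadjusted p under 0.05 edgeR had 1152 (8.18%), 1304 (9.26%) and 968 genes (6.88%), and DESeq2 called 1035, 1395 and 1145. *Stc2*, at 0 in all NS libraries, could not pass in the interactions with NS, where its SE was 18633 and 42696. In FC against HC its SE was 12.7. *Igfbp4* was at 0 in all NS dVenus- libraries and gave -11.2 ± 5.29 in FC against NS. *Igfbp5* had the smallest unadjusted p of the 10 genes in FC against NS, 0.00131 (adjusted p = 0.409), with an interaction of -4.27 ± 1.204 on the log2 scale, beside a median of -0.43 over all genes tested. DESeq2's Wald test put it past the threshold (-4.27, adjusted p = 0.0019). For *Pappa* the interaction was 3.03 ± 2.23 in FC against NS (edgeR, adjusted p = 0.748), 0.94 ± 3.79 in FC against HC (adjusted p = 1) and -2.09 ± 3.26 in NS against HC (adjusted p = 1). *Igf1r* gave -3.42 ± 1.62 in FC against NS (edgeR, adjusted p = 0.6), and *Igf2r* -2.32 ± 1.54 (adjusted p = 0.714). These intervals are wide, and the FC side of them is the contrast that chose the genes. FC mice have other prefixes than NS and HC mice, so in the interactions with FC training cannot be told apart from what goes with the prefix.

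NS and HC mice share a sequencing prefix, so their levels were compared directly. In dVenus+ libraries 0 of the 8 genes tested were called, beside 0% of 8706 genes, and in dVenus- libraries 0 of 4 beside 0% of 8547 genes (edgeR). Unadjusted p-values under 0.05 were found for 773 (8.88%) and 756 genes (8.85%), and DESeq2 called 113 and 149. *Pappa* differed by 0.85 ± 1.64 between NS and HC dVenus+ libraries (SE; edgeR, adjusted p = 0.945) and *Igfbp5* by 1.04 ± 1.01 (adjusted p = 0.826). In dVenus+ libraries *Igf1* was lower in NS than in HC by 2.46 ± 1.54 and *Igf2* by 2.67 ± 1.51, neither past the threshold (edgeR, adjusted p = 0.691 and 0.64).

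Of a list of 58 further genes of IGF signaling, 37 passed the FC filter and 2 were called, beside 4.35% of all genes. The median log2 difference was -0.18, against -0.11 over all genes tested. *Ctsd*, the lysosomal protease cathepsin D, was higher in dVenus+ cells (1.67 ± 0.45, SE), with medians of 297 CPM in dVenus+ and 108 CPM in dVenus- libraries. *Grb14*, an adaptor that binds activated insulin and IGF receptors, was lower (-2.72 ± 0.71, SE), with medians of 4.12 and 48.1 CPM. By role, 1 of 5 tested genes among the further binding proteins, proteases and processing genes was called higher and 1 of 10 receptors and adaptors lower, and 0 of 22 genes from PI3 kinase to mTOR and FoxO were called. In NS and HC mice 0 of 33 tested genes of the list were called in each. *Ctsd* there differed by 0.06 ± 0.86 and 1.85 ± 1.08 and *Grb14* by -1.42 ± 1.48 and 1.70 ± 2.58 (SE). Of the 9 microglia markers, 4 (*Csf1r*, *C1qa*, *C1qc* and *Aif1*) were called higher in FC dVenus+ libraries, beside 1.5% of all genes tested in FC. These 4 met the filter mostly through dVenus+ libraries, and *Tmem119* and *Itgam* did not meet it. *P2ry12* had the lower median in FC dVenus+ libraries (2.40 against 4.43 CPM). The sum of the list ran from 32.7 to 1714 CPM in FC dVenus+ and from 1.12 to 499 CPM in FC dVenus- libraries. The part of microglia in the level of *Ctsd* was not tested.

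The genes whose log2 CPM followed *Pappa* most closely over the 38 libraries, among 11262 genes with at least 10 counts in 10 libraries, were *Gpnmb* (Pearson's r = 0.8292), *Atf3* (0.805), *Arc* (0.753), *Blnk* (0.713) and *Npas4* (0.706). These points share the split into cell types, which *Arc* defines. *Gpnmb* encodes a transmembrane glycoprotein known from macrophages and microglia, and *Blnk* an adaptor of B cell receptor signaling that is also known from myeloid cells. *Atf3* and *Npas4* encode transcription factors induced by stress and by neuronal activity. With TMM scaling the summed microglia markers were the larger in dVenus+ cells of all FC and NS mice and 2 of 3 HC mice. Their part in these correlations was not tested. Within the 19 dVenus+ libraries the closest were other genes, *Tacc1* (0.770), *Exosc3* (0.768), *Mppe1* (0.767), *2610019F03Rik* (0.764) and *Fbxl15* (0.759), and *Arc* had 0.625. Of the other 9 genes of the IGF system, *Igf2* had the highest r with *Pappa* over the 38 libraries (0.447) and *Igfbp5* the lowest (-0.547), and that of *Igfbp5* was -0.242 within the dVenus+ and 0.0048 within the dVenus- libraries, where *Arc* had 0.025.

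Promoter sequence of RefSeq (GRCm38.p6) was at hand for 8 of the 10 genes, in 12 promoters, and not for *Pappa* and *Stc1*. It was searched on both strands for the cAMP response element TGACGTCA, to which CREB binds, and for its shorter form TGACG, which the full element contains. Over the 250 bases before the start, 0 of the 12 promoters held TGACGTCA, as 1.55% of 32851 promoters do, and 2 held TGACG or its complement CGTCA, as 17.8% do. The 2 were those of *Igf2r* and of 1 of the 4 starts of *Igf2*. Shown are the promoter of *Igfbp5*, the gene called lower in FC, and that of *Igf2r*, the one with most matches, with the letters TGACG or CGTCA in capitals, for chr1:72874866-72875115 and chr17:12769707-12769956, both on the minus strand and written 5′ to 3′.
*Igfbp5*: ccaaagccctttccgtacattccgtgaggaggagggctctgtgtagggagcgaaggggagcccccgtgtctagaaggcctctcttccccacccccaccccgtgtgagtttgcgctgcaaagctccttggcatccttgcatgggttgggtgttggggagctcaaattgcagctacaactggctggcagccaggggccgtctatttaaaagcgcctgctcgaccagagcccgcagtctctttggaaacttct
*Igf2r*: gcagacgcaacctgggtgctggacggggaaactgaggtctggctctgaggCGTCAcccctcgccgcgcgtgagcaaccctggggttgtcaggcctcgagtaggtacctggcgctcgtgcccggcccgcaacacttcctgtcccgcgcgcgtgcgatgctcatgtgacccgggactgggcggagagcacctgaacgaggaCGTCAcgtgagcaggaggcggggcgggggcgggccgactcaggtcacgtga
A match is a run of letters and not a site shown to be bound.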

How the data were processed

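Each library holds full-length cDNA (Smart-seq2, Nextera XT) of 10 aspirated cells, read as single 50-base reads. The authors aligned these to mm10 with TopHat2 2.0.13, kept unique alignments and deposited raw counts per gene from htseq-count 0.6.0 on NCBI transcripts. Libraries were assigned by title and characteristics, as 10 descriptions among the NS and HC libraries point to a different one. The 5 entries that name no gene were left out, and reads outside genes were 16.4% to 59.7% of uniquely aligned reads. A combined table of counts was not used. Identical libraries numbered 0.

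Counts were tested with edgeR 4.0.16 in R 4.3.3 (TMM, glmQLFit with its newer method, glmQLFTest, two-sided, Benjamini-Hochberg over all genes tested, checked on simulated data). FC, NS and HC were fitted separately on genes with at least 10 counts in 12, 4 and 3 libraries, with the mouse as block, because both libraries come from 1 animal. As a check, how far the paired libraries departed from their groups correlated with a median r of 0.0388 (FC), -0.0174 (NS) and 0.0109 (HC). Other fits used genes with at least 10 counts in 3 libraries. Log2 CPM for the correlations had a prior count of 2. Exon lengths and positions are those of GENCODE vM21 (GRCm38, the assembly of mm10). The genes, lists and tests were chosen with earlier results of these data known. Named are the 10 genes, pathway genes called in FC, NS or HC, and the 5 genes most like *Pappa* over all and over dVenus+ libraries. Alternatives were DESeq2 1.42.0 (size factors, Wald test), other count filters, no block, leaving out mice or prefixes, and, chosen after seeing the data, edgeR's older quasi-likelihood method.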

Additional observations from a re-analysis of the deposited data

Results flagged for a closer look

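Among the 17 sets of 4 NS libraries (10 genes in 2 cell types, without those at 0 throughout), 8 held a library that stood far from the other 3 by Dixon's criterion. Chance passes it in about 1 of 20 sets of normally spread values, which these levels, many at or near 0, are not. The share over all genes was not computed, so nothing is read from this number. *Pappa* stood at 144 CPM in the dVenus+ library of mouse 18, with the next at 4.47 CPM. *Igfbp2* stood at 261 CPM in the dVenus- library of the same mouse, with the next at 0.18 CPM, and *Igf1* at 18.4 CPM in that library, with the next at 0.361 CPM. *Igf1* stood at 17.9 CPM and *Igfbp4* at 34.8 CPM in the dVenus+ library of mouse 19, whose summed endothelial markers, at 61.3 CPM, were the highest of the 38 libraries. *Igf1r* stood at 57.4 CPM in the dVenus- library of mouse 19. *Igf2r* at 23.4 CPM and *Stc1* at 38.6 CPM stood out in the dVenus- library of mouse 21. No explanation was tested.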

How the results depend on the processing

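In FC 2 of the 10 genes were called in the setting reported, and 1 to 2 with each mouse left out. Only the call of *Igfbp5* was left without mouse 6, since *Pappa* then missed the filter and was not tested. With the prefix of 6 mice alone or that of 4 mice alone 0 were called. *Igfbp5* then differed by -2.65 and -3.92, and *Pappa*, tested only in the latter, by 7.49. Leaving out each FC mouse gave 6.83 to 7.53 for *Pappa* and -3.44 to -2.78 for *Igfbp5*, as a description, since this contrast chose the genes. The number of all FC genes called ran from 12 (4 mice alone) and 15 (6 mice alone) to 1630 (DESeq2's Wald test), with 137 by the older quasi-likelihood method and 277 without mice 3 and 5, a pair set by reads aligned. By reads on genes, the dVenus+ library of mouse 3 was the shallowest of the FC dVenus+ libraries, and that of mouse 9 was shallower than that of mouse 5. DESeq2's size factors moved the median FC difference of all genes from -0.11 to 0.02 and the calls from 146 higher and 276 lower to 189 and 223. In NS they moved the calls from 3 higher and 1 lower to 5 and 6, in the FC against HC interaction the median from -0.58 to -0.36, and in NS against HC dVenus- libraries from 0.12 to -0.063.

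DESeq2's Wald test called 2 of the 6 genes tested in HC (*Igf1* and *Igfbp2*, both of which met the filter through their dVenus+ libraries), among 627 of all 7588 genes, and passed 1 in the interaction of FC against NS (*Igfbp5*), where edgeR had 0. It called 665 NS genes, against 4 by edgeR as reported, 11 with size factors, 13 without the block, 1 without a filter and 0 by the older method, which called 2 in HC. Leaving out each NS mouse gave 0 to 2. NS against HC in dVenus- libraries gave 6 calls with size factors and 0 to 8 with each mouse left out.

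Without the replicate block, that is without pairing the libraries of a mouse, the FC calls numbered 487 and *Igfbp5* differed by -2.53 and *Pappa* by 7.47. The interactions then passed for 14, 8 and 32 genes of all and 0 of the 10, and the older method passed 1 gene in NS against HC. *Igfbp2* in NS turned to -2.99, and the NS against HC interactions of *Igf1r* and *Igf2r* turned to -0.75 and -0.098. No call on the 10 genes changed.

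Of 189 values of the 10 genes under settings other than leaving out a mouse, 174 kept direction and side of the threshold, 9 turned, 3 lost and 3 gained a call. *Igf2r* in FC, near 0, turned to -0.031 without a filter, -0.056 by the older method, -1.44 with the 4 mice alone and -0.056 without mice 3 and 5, and ran from -0.37 to 0.34 with each mouse left out. *Igf1r* in FC turned to 0.46 with the 6 mice alone. *Stc1* in NS turned to 0.15 by DESeq2. With each mouse left out, uncalled values also turned for *Igfbp2* (-2.48 to 1.28) and *Stc1* (-2.69 to 0.77) in NS, and for *Igf1r* (-0.061 to 3.00) and *Igf2r* (-2.97 to 3.57) in HC. In the interactions they turned for *Igf2r* (-3.71 to 2.77) and *Pappa* (-0.999 to 2.42) in FC against HC, and for *Igf1r* (-0.40 to 2.51) and *Igf2r* (-1.38 to 5.09) in NS against HC. Between NS and HC dVenus+ libraries they turned for *Igf1r* (-1.10 to 0.17), *Igf2r* (-1.79 to 3.25) and *Pappa* (-3.09 to 2.47), and in dVenus- libraries for *Igf1r* (-3.50 to 0.57), *Igf2r* (-3.37 to 0.63) and *Igfbp5* (-0.54 to 0.86). The cause was not tested. With 4 NS and 3 HC mice and counts near 0, a difference that did not pass is not shown to be absent.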
